A study of Mus musculus with 10 samples.

Results

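The 28 genes described here encode the regulators of SREBP2, the enzymes of sterol synthesis and a few SREBP2 targets and partners that move cholesterol into and within cells. The list was chosen with earlier results of these data known. Its genes were picked by gene name from the 19414 genes of a table of liver expression in mice, and every one of the 28 names was found there once. Of these, 27 had a mean of at least 1 CPM (reads of a gene per 1000000 reads assigned to genes in that library) and were tested, and Npc1l1 fell below that level.

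Cells make cholesterol from acetyl-CoA along the mevalonate pathway, which leads through farnesyl diphosphate and squalene to lanosterol and from there to cholesterol. SREBP2, the product of Srebf2, is a transcription factor held in the endoplasmic reticulum together with its escort SCAP while sterols are plentiful, because INSIG proteins then retain SCAP. When membrane sterol falls, SCAP carries SREBP2 to the Golgi, proteases release its active part, and transcription of the enzymes of the pathway rises, in the liver as in other tissues.

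RNA of 10 female mice of the genetically heterogeneous HET3 stock was sequenced after poly-A selection, with 5 livers from mice on the Longevity diet (LD) and 5 from mice on a standard diet (SD), each diet given for 5 months. The series title calls the Longevity diet methionine-supplemented, and the labels put the age at 25 months without saying whether that is the age when feeding began or ended. Mice are named by diet and number, such as LD_405, and each is 1 animal, 1 library and 1 column of values. Values are given in ascending order of mouse number within a diet, and errors are standard deviations over the 5 mice of a diet.

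The libraries of the diets differed beyond these genes. The estimated depth was 24.7 to 39.1 M reads on LD and 36.0 to 45.7 M reads on SD, where M stands for 1000000. Albumin, the most abundant hepatocyte transcript of the marker list, averaged 124800 ± 20700 CPM on LD and 79130 ± 19770 CPM on SD (adjusted p = 0.0831, limma). All 6 hepatocyte markers were present, with a summed level, mostly albumin, of 122400 to 171900 CPM on LD and 77350 to 126000 CPM on SD, while the other 5 had lower means on LD and 1 of them, Cps1, fell (log2 change -0.98, adjusted p = 0.0376). All 5 markers of sinusoidal endothelial cells had lower means on LD, with sums of 63.9 to 130 CPM on LD and 152 to 208 CPM on SD. The 5 stellate cell and fibroblast markers, all with lower means on LD, had sums of 166 to 265 CPM on LD and 279.9 to 387 CPM on SD, and Pdgfrb fell (log2 change -1.36, adjusted p = 0.029). Neutrophil markers had sums of 0.930 to 3.42 CPM on LD and 3.03 to 71.4 CPM on SD, and S100a8 fell (log2 change -3.79, adjusted p = 0.0456), while Ly6g was listed at 0 in 6 of the 10 mice. With voom weights in limma 0 neutrophil markers passed, and S100a8 was low on LD, at 0.179 to 0.637 CPM. The high neutrophil sums on SD were those of SD_403 (60.55 CPM) and SD_646 (71.4 CPM), and SD_501 came next at 10.86 CPM. All 4 B cell markers had lower means on LD (sums of 2.12 to 24.3 CPM on LD and 10.4 to 33.2 CPM on SD), 3 of them at an unadjusted p under 0.05. Of the 5 Kupffer cell markers, 4 had a log2 change below 0 (sums of 121 to 446 CPM on LD and 229.7 to 417 CPM on SD). No B cell or Kupffer cell marker passed the threshold. Cholangiocyte markers had sums of 26.4 to 46.4 CPM on LD and 26.8 to 58.8 CPM on SD. Of the 4 tested, 2 had a log2 change above 0 and 2 below. T cell markers had sums of 0.462 to 11.2 CPM on LD and 2.04 to 11.8 CPM on SD, with 1 log2 change above 0 and 3 below. No cholangiocyte or T cell marker passed the threshold. The part of these other cells in the results below was not tested, and in whole liver fewer cells of a type and less RNA per cell cannot be told apart.

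LD_405 stood apart from the other LD mice by GC content. Across 13001 tested genes, its deviation from the mean of the other LD mice correlated with the GC content of the transcripts at a Spearman rho of 0.43 and with their length at -0.50. These are correlations across genes of single libraries and are given as a description. In the other LD mice the correlation with GC content lay between -0.36 and 0.03, and in the SD mice between -0.05 and 0.09. Each mouse was set against the mean of the others of its diet. LD_405 thus enters the mean used for each other LD mouse, and those values are not independent of it. Correlations with length of like size were found in other mice, among them 0.52 in LD_513, 0.42 in LD_442 and 0.44 in SD_502.

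On LD, 5 of the 27 tested genes rose and 0 fell, at a threshold of 0.05 for the adjusted p of limma (diet as the only term, Benjamini-Hochberg adjustment over 13157 genes). Among all genes tested 0.661% rose and 1.23% fell. Such values over all genes stand beside the members as a description, because the list was chosen with earlier results of these data known. The 5 that rose were Idi1, Fdft1, Lss, Cyp51 and Nsdhl, which act at some of the steps from isopentenyl diphosphate to the demethylated sterols. Fdps, Sqle, Msmo1, Hsd17b7 and Tm7sf2, of the same stretch, did not pass. At an unadjusted p under 0.05, 12 members were higher and 1 was lower on LD, against 5.92% and 11.6% of all genes, and limma with voom weights called the same 5 genes and again 0 lower. The median log2 change of the 27 genes was 0.51, beside -0.11 over all genes tested, and 21 of the 27 had a log2 change above 0, as had 39.6% of all genes. Among all genes 87 rose and 162 fell with the CPM as deposited, and 151 rose and 138 fell after median-of-ratios scaling, which called 6 members higher and 0 lower.

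The number of calls changed when single animals were left out, the size of the changes less so. Each such fit has 1 mouse fewer. Over all genes the number that rose, 87 with all mice, ran from 31 to 151 across these fits. The part of the smaller number of animals in this was not tested. Without LD_406, LD_515, SD_403, SD_500 or SD_501 the number of members that rose was 1 each time, the gene being Nsdhl, and without LD_513 it was 2. Without LD_442 it was 9, while without LD_405 it was 7, without SD_502 it was 6 and without SD_646 it was 4. Over the 10 fits without 1 mouse the log2 change ran from 1.02 to 1.24 for Idi1, 0.80 to 1.06 for Fdft1, 1.00 to 1.30 for Lss and 1.12 to 1.40 for Cyp51. Nsdhl was the only member that kept the call in all 21 alternative analyses, with adjusted p of 0.00258 to 0.0494.

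**Figure D1:**
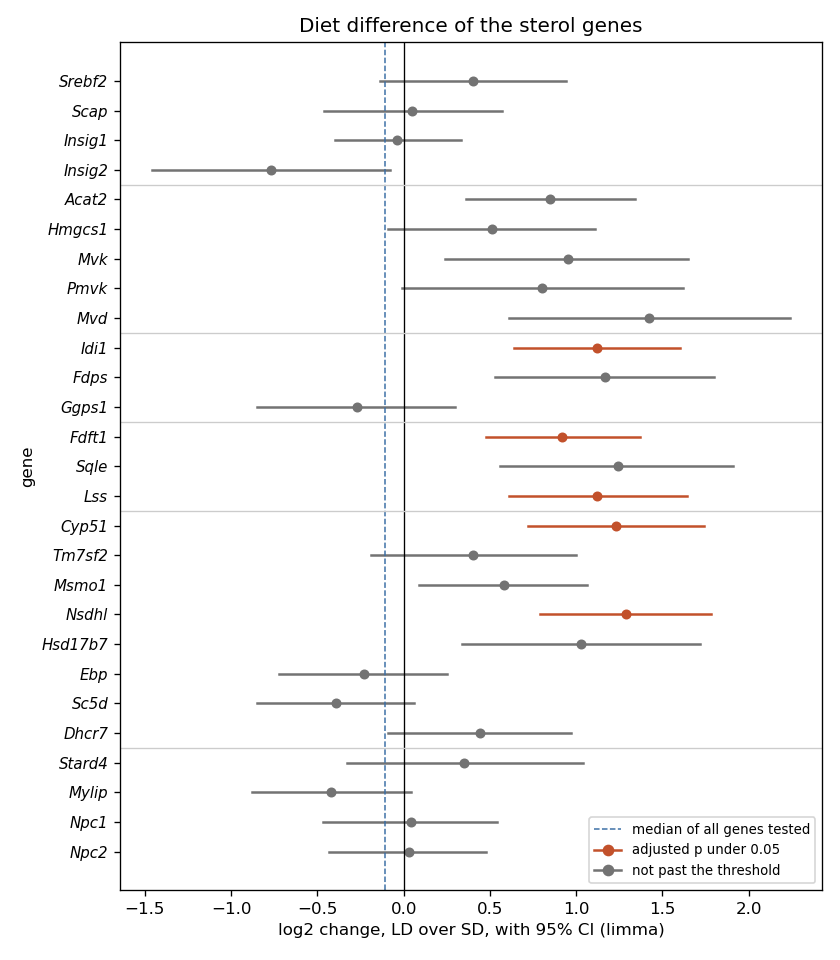
Log2 change on the Longevity diet over the standard diet for the 27 tested genes, grouped by role from regulators at the top to transport at the bottom. Points are limma estimates with 95% confidence intervals, red marks the 5 genes past the threshold, and the dashed line is the median of all genes tested (-0.11). Srebf2, Scap, Insig1 and Insig2 lie between -0.77 and 0.40, whereas the 5 red genes lie between 0.92 and 1.29.

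The regulators did not pass the threshold. Srebf2 (chromosome 15 from 82031382 to 82089580, mm39), the gene of the transcription factor itself and a known target of it, had 90.7, 117, 83.9, 127 and 91.6 CPM in LD mice, against 95.1, 75.6, 52.5, 129 and 52.9 CPM in SD mice. All 5 LD values lay within the SD range, whose upper end was SD_502, and the log2 change was 0.40 (95% CI -0.14 to 0.94, adjusted p = 0.431). Scap (chromosome 9 from 110162356 to 110214018), the escort, had 110.2, 146, 148, 127 and 141 CPM in LD mice, against 127, 134, 101, 234 and 87.6 CPM in SD mice. SD_502 was again the highest of the 10 mice, and the log2 change was 0.05 (95% CI -0.46 to 0.57, adjusted p = 0.928), a sign that turned in several analyses.

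Insig1 (chromosome 5 from 28276361 to 28283660), known as a target of SREBP2 that closes a feedback loop, had 310.3, 394, 280.5, 322 and 333 CPM in LD mice, against 342, 353, 339, 249 and 409.5 CPM in SD mice. The LD values all lay within the SD range, at a log2 change of -0.04 (95% CI -0.40 to 0.33, adjusted p = 0.935) that was 0.07 after median-of-ratios scaling. Insig2 (chromosome 1 from 121232082 to 121260318), whose liver transcript is repressed by insulin in rodents, had 53.1, 83.7, 187, 108 and 169.8 CPM in LD mice, against 255, 197, 160.2, 218 and 126 CPM in SD mice. LD_405, LD_406 and LD_513 lay below every SD mouse, and LD_442 and LD_515 within the SD range. The log2 change of Insig2 was -0.77 (95% CI -1.46 to -0.08, adjusted p = 0.234) and -0.51 without LD_405 (adjusted p = 0.316).

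**Figure D2:**
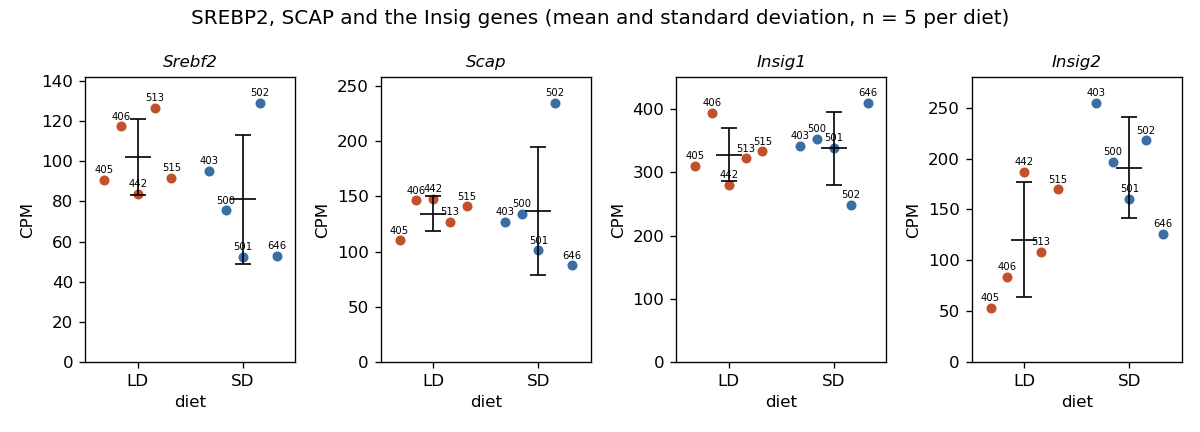
CPM of Srebf2, Scap, Insig1 and Insig2 in each mouse, LD left and SD right in each panel, with mouse numbers beside the points and bars for the mean and standard deviation of 5 mice. Insig1 averaged 328 ± 41.9 CPM on LD and 338 ± 57.7 CPM on SD, and Insig2 averaged 120.3 ± 56.7 CPM on LD and 191 ± 49.9 CPM on SD.

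The enzymes that lead from acetyl-CoA to isopentenyl diphosphate had higher means on LD in all 5 cases, but 0 of 5 passed the threshold by limma or by voom, with 3 higher and 0 lower at an unadjusted p under 0.05. Mvd, the decarboxylase that forms isopentenyl diphosphate, had a log2 change of 1.42 (95% CI 0.61 to 2.24, adjusted p = 0.0769). This was the largest of the 27 genes with all mice, but without LD_405 Mvd came after Cyp51, Sqle, Nsdhl, Hsd17b7, Idi1 and Lss. Its values were 148, 81.0, 24.9, 47.5 and 63.7 CPM in LD mice, against 25.4, 20.2, 15.7, 27.6 and 28.8 CPM in SD mice. LD_442 thus lay inside the SD range and the other 4 LD mice above it, and without LD_405 the log2 change was 1.11 (adjusted p = 0.0737), without LD_442 1.75 (adjusted p = 0.0173).

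Acat2, the cytosolic thiolase that joins acetyl-CoA units, averaged 146 ± 35.0 CPM on LD and 80.5 ± 17.6 CPM on SD (log2 change 0.85, adjusted p = 0.0812, and 0.0289 without LD_442), with reads that can be shared with its close paralog Acat3. The kinases Mvk and Pmvk, which phosphorylate mevalonate in turn, had log2 changes of 0.95 (adjusted p = 0.155) and 0.80 (adjusted p = 0.293), which without LD_405 were 0.68 (adjusted p = 0.178) and 0.53 (adjusted p = 0.425). Both were highest in LD_405, at 115 CPM for Mvk and 162 CPM for Pmvk, and LD_442 was at 27.1 and 32.3 CPM, in the range of the SD mice for Mvk and just below it for Pmvk. Hmgcs1, the synthase of HMG-CoA, averaged 447 ± 129.7 CPM on LD and 319 ± 109 CPM on SD (log2 change 0.51, 95% CI -0.09 to 1.11, adjusted p = 0.368).

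Among the enzymes that build prenyl diphosphates, Idi1 rose. Idi1 (ENSMUSG00000058258.16, chromosome 13 from 8935537 to 8942487) encodes the isomerase that turns isopentenyl diphosphate into dimethylallyl diphosphate. It had 310.4, 569.9, 317, 505 and 521 CPM in LD mice, against 191, 174, 152, 261 and 229.5 CPM in SD mice. The lowest LD mouse, LD_405, lay above the highest SD mouse, SD_502. Idi1 rose 2.17-fold, a log2 change of 1.12 with an SE of 0.22 and a 95% CI of 0.64 to 1.60 (adjusted p = 0.0253). The call was lost in 7 of 21 alternative analyses, with adjusted p up to 0.0778.

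Fdps, the synthase of farnesyl diphosphate, averaged 425 ± 188 CPM on LD and 183 ± 58.5 CPM on SD. LD_405 reached 727 CPM and LD_442, at 235 CPM, lay under SD_403 with 261 CPM. The log2 change of 1.17 had an adjusted p of 0.0658, which was 0.0341 without LD_442 and 0.0657 without LD_405. Ggps1, which makes geranylgeranyl diphosphate for protein prenylation and stands beside the sterol branch, was at 5.71 ± 2.03 CPM on LD and 6.71 ± 1.34 CPM on SD (log2 change -0.27, 95% CI -0.85 to 0.30, adjusted p = 0.628). Ggps1, Hmgcs1 and Npc1 also overlap genes on the other strand, Arid4b, Gm48342 and Rmc1.

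All 3 genes between farnesyl diphosphate and lanosterol had every LD mouse above every SD mouse, as was the case for 6 members in all and for 2.01% of the genes tested. The opposite order was found for 0 members and for 3.49% of the genes tested. Fdft1 (ENSMUSG00000021273.12, chromosome 14 from 63382599 to 63417027), squalene synthase, had 409.9, 324, 198, 305 and 262 CPM in LD mice, against 185, 137, 121, 165 and 168 CPM in SD mice. The lowest LD mouse, LD_442, lay above the highest SD mouse, SD_403, and Fdft1 rose 1.90-fold, by 0.92 on the log2 scale (SE 0.21, 95% CI 0.48 to 1.37, adjusted p = 0.0388). Without LD_405, the highest mouse, the change was 0.80 (adjusted p = 0.0403). Fdft1 overlaps Ctsb (756 CPM) on the other strand in the table, the libraries are not stated to be stranded, and the call was lost in 8 of 21 alternative analyses (adjusted p up to 0.151).

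Lss (ENSMUSG00000033105.13, chromosome 10 from 76367422 to 76392972), lanosterol synthase, had 108, 135, 68.2, 155 and 104 CPM in LD mice, against 51.5, 42.4, 37.5, 61.6 and 64.7 CPM in SD mice. LD_442 stood just above SD_646 and the other LD mice further above, and Lss rose by 1.12 on the log2 scale (SE 0.24, adjusted p = 0.0314, lost in 7 of 21 alternative analyses). Sqle, squalene epoxidase, was also separated, at 93.4 to 196 CPM on LD and 30.8 to 92.5 CPM on SD. Its log2 change of 1.24 had a larger error (SE 0.31) and an adjusted p of 0.0658, which was 0.0482 without LD_405, 0.0486 without LD_442 and 0.0370 after median-of-ratios scaling.

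After lanosterol the pathway removes methyl groups and moves double bonds. Cyp51 (ENSMUSG00000001467.6, chromosome 5 from 4131145 to 4154746), the cytochrome P450 that demethylates lanosterol, had 206, 456, 271, 376 and 409.9 CPM in LD mice, against 155, 125, 104, 184 and 147 CPM in SD mice. The lowest LD mouse, LD_405, was above the highest SD mouse, SD_502, and Cyp51 rose 2.35-fold (log2 change 1.23, SE 0.24, adjusted p = 0.020, and 0.00526 without LD_405). The call was lost in 6 of 21 alternative analyses, with adjusted p up to 0.0700, and Akap9 overlaps Cyp51 on the other strand.

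Nsdhl (ENSMUSG00000031349.5, chromosome X from 71962163 to 72002120), the dehydrogenase that removes carboxylated sterol methyl groups, had 158, 172, 108, 177 and 197 CPM in LD mice, against 65.9, 59.1, 42.2, 80.3 and 90.0 CPM in SD mice. Every LD mouse was above every SD mouse, and the other 4 LD mice clustered between 158 and 197 CPM above LD_442. Nsdhl rose 2.44-fold, a log2 change of 1.29 (SE 0.23, 95% CI 0.79 to 1.78, adjusted p = 0.0144), and the log2 change ran from 1.13 to 1.46 across the alternative analyses.

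**Figure D3:**
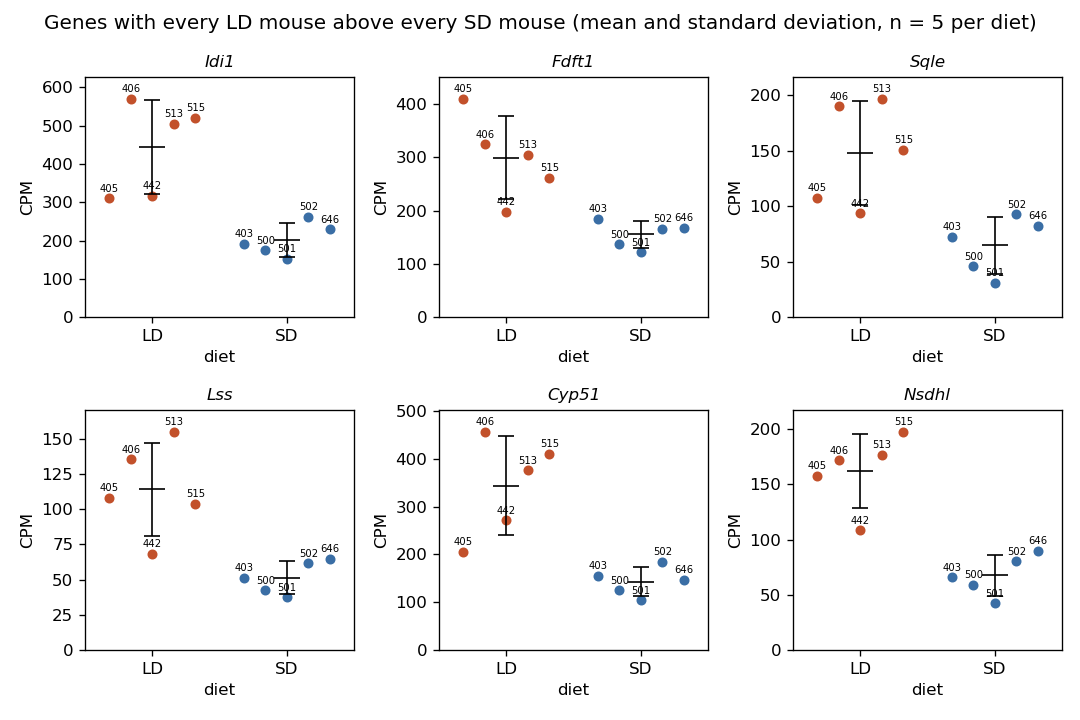
CPM of the 6 genes in which all 5 LD mice lie above all 5 SD mice, LD left and SD right, with mouse numbers beside the points and bars for the mean and standard deviation. LD_442 is the lowest LD mouse for Fdft1, Sqle, Lss and Nsdhl and LD_405 for Idi1 and Cyp51, and SD_501 is the lowest SD mouse in all 6 panels.

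Partner enzymes of Nsdhl in sterol demethylation stood higher on LD without passing the threshold. Hsd17b7, the keto-reductase of that complex, averaged 127 ± 43.8 CPM on LD and 62.9 ± 23.7 CPM on SD (log2 change 1.03, adjusted p = 0.121), and the low LD value belonged to LD_405, without which the adjusted p was 0.0408. Msmo1, the methylsterol oxidase, averaged 286 ± 72.5 CPM on LD and 189.5 ± 41.5 CPM on SD (log2 change 0.58, adjusted p = 0.205). Tm7sf2, a sterol reductase that shares bases with Vps51 on the same strand in the table, averaged 251 ± 107 CPM on LD and 178 ± 32.7 CPM on SD (log2 change 0.40, adjusted p = 0.475), and its change was 0.21 without LD_405.

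The last enzymes of the pathway showed smaller differences, on both sides of 0. Ebp, the sterol isomerase, averaged 241 ± 89.2 CPM on LD and 271 ± 32.4 CPM on SD (log2 change -0.23, 95% CI -0.72 to 0.25, adjusted p = 0.620). LD_405 held the highest Ebp value of the 10 mice, 383 CPM, while LD_442, LD_513 and LD_515 were below every SD mouse, and without LD_405 the change was -0.42 (adjusted p = 0.219). Sc5d, the lathosterol desaturase, averaged 351 ± 94.3 CPM on LD and 456 ± 97.2 CPM on SD (log2 change -0.39, 95% CI -0.85 to 0.06, adjusted p = 0.363, and -0.28 without LD_405), and Dhcr7, which reduces dehydrocholesterol to cholesterol, averaged 156 ± 40.3 CPM on LD and 115 ± 32.3 CPM on SD (log2 change 0.44, 95% CI -0.09 to 0.97, adjusted p = 0.384). The upper bounds for Ebp and Sc5d lie below the lower bounds of all 5 genes that rose, and the upper bound for Dhcr7 lies above them. Because the 5 genes were set apart by these same values, this is a description and not a test.

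The bases just before the transcript start are shown for the genes that rose, because the promoters of SREBP2 targets are known to carry a sterol regulatory element beside a CCAAT box, the site bound by NF-Y. Windows of 250 bases before to 50 after a transcript start were found in RefSeq (GRCm38.p6) for 23 of the 28 genes, with no entry for Fdps, Fdft1, Sqle, Stard4 and Npc1. The stretches run 5′ to 3′ on the gene's strand, and capitals mark CCAAT or its reverse complement ATTGG. The Lss stretch ends 41 bases before its transcript start, where the outermost start of the gene lies.
Idi1, chr13:8885486-8885605, plus strand: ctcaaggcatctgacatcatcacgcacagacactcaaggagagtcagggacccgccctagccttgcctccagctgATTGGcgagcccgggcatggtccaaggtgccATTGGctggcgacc
Lss, chr10:76531485-76531564, plus strand: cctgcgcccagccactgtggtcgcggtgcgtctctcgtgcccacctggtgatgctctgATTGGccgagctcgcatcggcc
Cyp51, chr5:4104698-4104817, minus strand: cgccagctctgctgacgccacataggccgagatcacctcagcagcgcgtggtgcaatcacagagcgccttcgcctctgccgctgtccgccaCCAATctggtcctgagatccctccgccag
Nsdhl, chrX:72918401-72918520, plus strand: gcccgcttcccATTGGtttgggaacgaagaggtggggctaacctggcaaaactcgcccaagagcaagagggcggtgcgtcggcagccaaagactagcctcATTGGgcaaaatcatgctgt

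CCAAT, read on both strands, was present in the windows of 21 of the 23 genes (91.3%) and absent from those of Scap and Acat2. The same 5 letters were found in 43.0% of the 9678 tested genes with a window, in 41.1% of all 27025 genes with one and in 37.4% of the 32851 windows. GGGCGG, the core of the binding site of Sp1, was found for 20 of the 23 genes and for 66.9% of tested genes. The full consensus of the classical sterol regulatory element was found for 0 of the 23 genes and for 0.238% of tested genes. The shorter CACNCCAC, which makes up the end of that consensus and was searched afterwards, was found for 3 of the 23, Insig1, Acat2 and Hmgcs1, and for 7.54% of tested genes. None of the genes that rose is among those 3, though Fdft1 had no window to search. CCAAT was also present for Ebp, Sc5d, Ggps1, Insig1, Insig2, Mylip and Npc1l1, whose means were lower on LD.

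**Figure D4:**
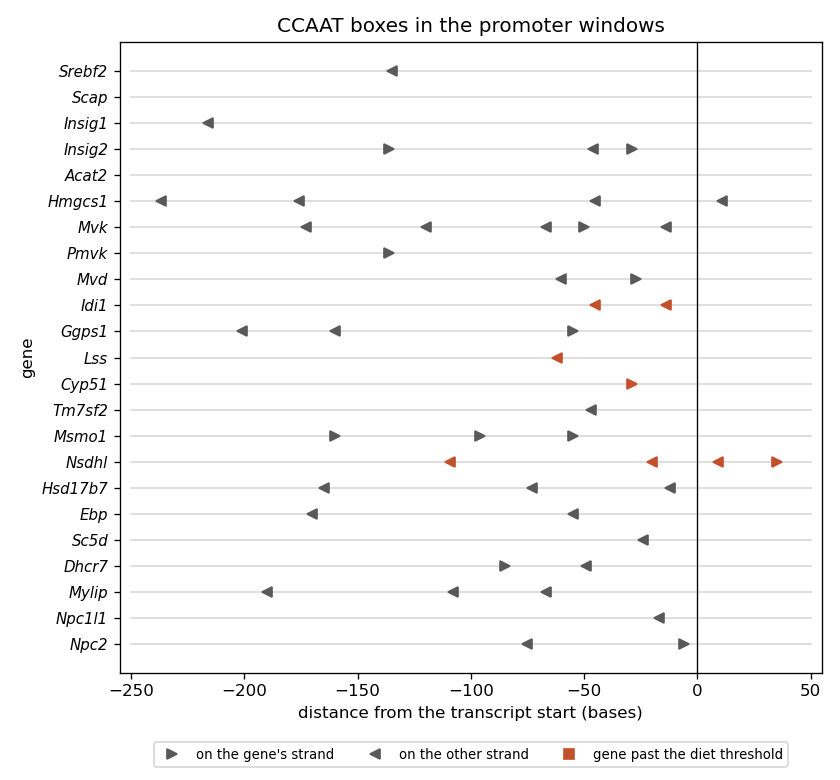
Positions of CCAAT in the RefSeq promoter windows of 23 genes, in bases from the transcript start, with arrowheads for the strand and red for the 4 genes with a window that rose. In 21 genes boxes lie between positions -237 and -6, with some after the start in Hmgcs1 and Nsdhl.

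The genes of uptake and transport did not pass the threshold, with 0 of the 4 tested called in either direction by limma or voom and 0 at an unadjusted p under 0.05. Stard4, a carrier of cholesterol between membranes and a known SREBP2 target, averaged 116 ± 46.1 CPM on LD and 84.9 ± 20.6 CPM on SD (log2 change 0.35, adjusted p = 0.593). LD_405 had the lowest Stard4 value of the 10 mice, 43.5 CPM, and without it the change was 0.67 (adjusted p = 0.0901). Mylip, a ubiquitin ligase induced by the oxysterol receptor LXR that sends lipoprotein receptors for degradation, averaged 6.78 ± 1.34 CPM on LD and 9.02 ± 1.14 CPM on SD (log2 change -0.42, 95% CI -0.88 to 0.04, adjusted p = 0.329, and -0.30 without LD_405).

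Npc1 and Npc2, the lysosomal pair that hands over cholesterol taken up by endocytosis, had log2 changes of 0.04 (95% CI -0.47 to 0.54) and 0.03 (95% CI -0.43 to 0.48). Npc1 averaged 134 ± 24.9 CPM on LD and 135 ± 48.3 CPM on SD, and Npc2 averaged 112 ± 25.2 CPM on LD and 111 ± 27.7 CPM on SD, and the signs of both turned in several analyses. Npc1l1, the sterol importer of the intestine, was listed at 0 in 3 of 5 LD mice and 2 of 5 SD mice and reached at most 0.232 CPM on LD and 0.528 CPM on SD. In the shallowest library 3 reads correspond to 0.121 CPM, and both LD values above 0 and all 3 such SD values were over it. Npc1l1 was below the mean of 1 CPM set for testing, and its difference between diets was not tested.

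The mice of a diet were not alike across the 19 enzymes from Acat2 to Dhcr7. Taking each enzyme's log2 level minus its mean over the SD mice, the median over the enzymes was 0.84 in LD_405, 1.33 in LD_406, 0.19 in LD_442, 0.99 in LD_513 and 0.84 in LD_515, against 0.14 in SD_403, -0.17 in SD_500, -0.43 in SD_501, 0.29 in SD_502 and 0.21 in SD_646. LD_442 therefore lay under SD_502 and SD_646, and it was the lowest LD mouse for 13 of the 19 enzymes. Of all 19 enzymes, 8 were above every SD mouse in LD_442. SD_501 was the lowest of all 10 mice for 13 of the 19.

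LD_405 was the highest LD mouse for 7 enzymes (Mvk, Pmvk, Mvd, Fdps, Fdft1, Tm7sf2 and Ebp) and the lowest for 6 (Hmgcs1, Idi1, Ggps1, Cyp51, Hsd17b7 and Sc5d). The median GC content of the transcripts was 56.3% for the 7 and 45.5% for the 6, beside 50.5% over the tested genes, and their median longest transcripts had 2380 and 4087 bases. Because the 7 and the 6 were set apart by the values of LD_405 itself, this is a description and not a test. In an analysis added after seeing the data, with the slopes on GC content and length removed from each library, 9 members rose and 0 fell: the 5 above with Mvd, Fdps, Sqle and Hsd17b7, whose adjusted p then were 0.0383, 0.0411, 0.0275 and 0.0473. The calls over all genes grew as well, to 155 that rose and 297 that fell, against 87 and 162 without that removal.

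**Figure D5:**
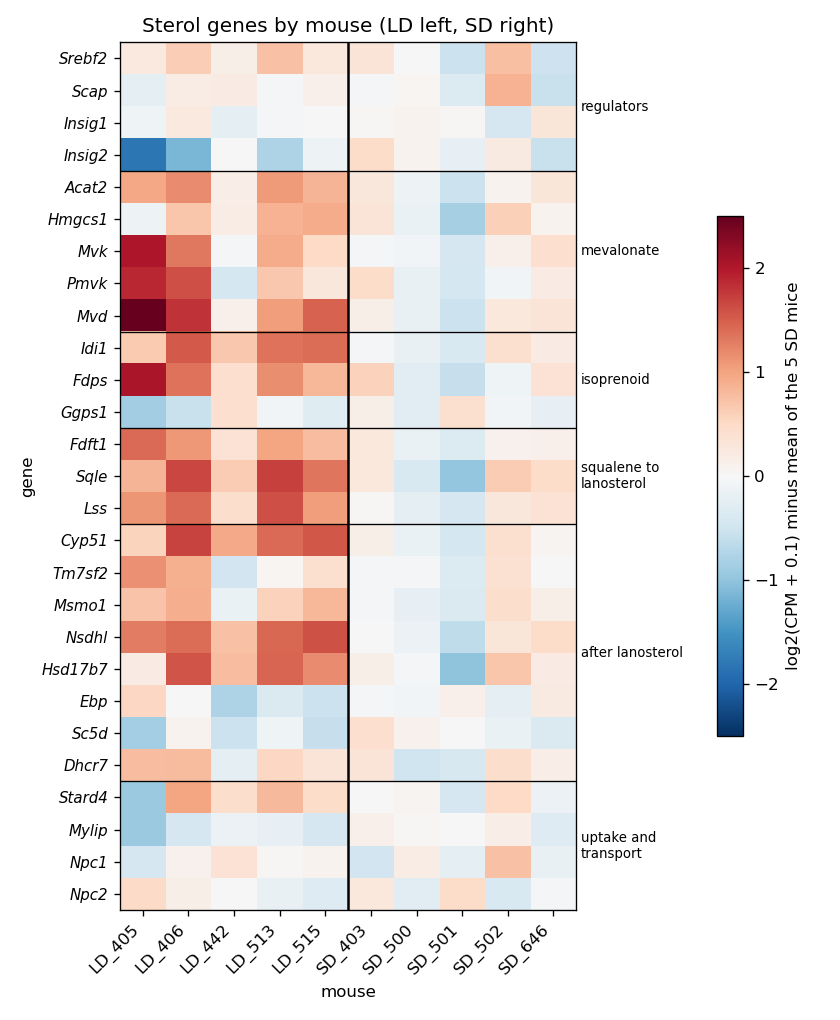
Log2(CPM + 0.1) of the 27 tested genes in each mouse minus the mean of the 5 SD mice, LD left and SD right, genes in pathway order. LD_406, LD_513 and LD_515 are red over most enzymes (medians 1.33, 0.99 and 0.84), and LD_442 is pale (0.19). LD_405 is dark red for Mvk, Pmvk, Mvd and Fdps and bluest for Insig2, Stard4, Mylip, Ggps1 and Sc5d.

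Genes that border the sterol pathway were followed in 4 further lists. Of 12 genes of the prenyl and dolichol branches, which draw on farnesyl and geranylgeranyl diphosphate, 0 passed in either direction by limma or voom and 0 at an unadjusted p under 0.05, with a median log2 change of 0.01. Of 12 genes of SREBP processing and sterol sensing 0 passed by either tool, with a median of -0.03 and 1 higher and 0 lower at an unadjusted p under 0.05. That gene was Tmem97, a membrane protein of sterol handling, at 118 ± 26.9 CPM on LD and 77.7 ± 8.14 CPM on SD (adjusted p = 0.134). Srebf1, the relative of Srebf2 that drives lipogenic genes, was named for that relation after its values were seen and averaged 244 ± 69.9 CPM on LD and 246 ± 30.8 CPM on SD (adjusted p = 0.922).

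Of 13 SREBP1 lipogenic targets 0 rose and 1 fell, the desaturase gene Scd1 (log2 change -1.30, adjusted p = 0.0408), with a median of 0.39, the same counts by voom and 4 higher and 1 lower at an unadjusted p under 0.05. Fads2, a desaturase of polyunsaturated fatty acids, averaged 1036 ± 90.1 CPM on LD and 626 ± 266 CPM on SD (adjusted p = 0.0932). Acaca and Fasn were also higher, with log2 changes of 0.87 (limma adjusted p = 0.172) and 0.65 (limma adjusted p = 0.22). Of 13 tested genes of cholesterol efflux, esters and bile acids 0 passed by either tool, with a median of -0.08 and 4 higher and 2 lower at an unadjusted p under 0.05. Abcg5 and Abcg8, the subunits of the exporter of sterols into bile, had log2 changes of 0.69 (adjusted p = 0.0904) and 0.68 (adjusted p = 0.0851), and Soat2, which esterifies cholesterol, 0.58 (adjusted p = 0.121). The remaining higher gene was Nceh1, at 0.75 (limma adjusted p = 0.185). The lower pair were Cyp7b1, an oxysterol hydroxylase, at -0.52 (adjusted p = 0.172), and Cyp8b1, the hydroxylase that sets the share of cholic acid, at -1.81 (adjusted p = 0.227). Cyp8b1 and Nceh1 were named after their values were seen.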

How the data were processed

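The members and the gene lists were chosen with earlier results of these data known. Values were deposited by the authors as CPM, reads of a gene per 1000000 assigned reads, with 0.0001 added, as the column totals show. Per the submitters' processing notes STAR, Partek and mm39 were used; versions, the quantifier and the low-count filter are not given in the sources used here. The 0.0001 was subtracted. Depth was estimated from the step of low values. Of the values worth under 100 reads, 84.5% to 87.9% were whole to within 0.1, short of the 95% set for treating them as counts. The fit with voom weights nevertheless took CPM multiplied by the estimated depth in place of counts, so it rests on values short of that mark. Genes whose mean reached 1 CPM were fitted as log2(CPM + 0.1) with limma 3.58.1 (trend, robust, statmod 1.5.0, R 4.3.3), two-sided, and the approach was tested on simulated data. Fold changes are LD over SD on that scale. Each library is labelled as a mouse of its own. No mouse number occurs on both diets. All members are named. Those past the threshold and the 4 regulators are given per mouse. Mvd, with the largest log2 change of the tested members, is also given per mouse, outside that rule. Up to 4 genes of smallest p of other lists are named, with Srebf1, Cyp8b1 and Nceh1 beyond these. The end of each gene is 1 below the deposited stop. GC content and length came from GENCODE M21 (98.8% of tested genes). Alternatives were other pseudocounts, filters, scalings and weights, the mouse number's leading digit as covariate, and fits without 1 mouse at a time; the removal of GC and length slopes and the search for CACNCCAC were added after seeing the data. Other genes of the pathway were not analysed here.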

Additional observations from a re-analysis of the deposited data

How the results depend on the processing

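The number of members that rose (5) was 10 with weights per mouse, 1 with the leading digit of the mouse number as a covariate, where SD_646 is alone with its digit and so adds nothing to the diet term, and 9 with GC and length slopes removed. Over the 10 analyses without 1 mouse it ran from 1 to 9, and the number that fell stayed 0. Fewer animals enter these fits. The median log2 change of the members ran from 0.34 to 0.66 without 1 mouse. Among all genes, 151 rose with median-of-ratios scaling, which moved the median of all genes by 0.102, and 151 with quantile normalization, which moved it by 0.114. With weights per mouse 329 rose and 476 fell, with the leading digit 28 and 70, and with GC and length slopes removed 155 and 297. Without 1 mouse 31 to 151 rose and 58 to 227 fell. Other pseudocounts, filters, voom weights and the fit that was not robust left the 5 calls in place. The sign turned for 4 genes near 0. Scap was at -0.06 with the leading digit, -0.02 with GC and length slopes removed, and from -0.08 to 0.27 without 1 mouse (-0.08 without SD_646, -0.03 without SD_501 and 0.27 without SD_502). Insig1 was at 0.07 with median-of-ratios scaling, 0.02 with the leading digit, 0.04 with GC and length slopes removed, and 0.02 and 0.04 without LD_442 and SD_646. Npc1 was at -0.01 with quantile normalization and at -0.09 to -0.01 without SD_403, SD_501, SD_646 or LD_442 (-0.03, -0.01 and -0.05 for the last 3), its highest value being 0.22 without SD_502. Npc2 was at -0.03 with quantile normalization, -0.01 with weights per mouse, -0.14 with the leading digit, and -0.09, -0.01, -0.04 and -0.07 without LD_405, LD_406, SD_500 and SD_502, its highest value being 0.14 without SD_501. The causes were not tested. No paired analysis was possible because no mouse number occurs on both diets. The floor of 3 reads covers counting error only, because PCR copies were not told apart.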
